A study of Homo sapiens with 4 samples.

Results

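The reporter RNA made from a weak and from a strong promoter was compared element by element. An element is 1 allele of 1 variant in 1 window and 1 orientation of a designed oligonucleotide. Elements were chosen by read depth in the plasmid pools: a tag, an 11-base barcode that marks 1 plasmid design, needed at least 10 reads in both input libraries, and an element needed at least 10 such tags. Of 7270 elements in the table, 6688 met this rule, and 582 did not. They covered all 606 variants and were measured with 10 to 33 tags each, with a median of 29.

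The 4 libraries were plasmid input and reporter RNA for the minimal promoter, minP, and plasmid input and reporter RNA for the simian virus 40 promoter, SV40, with 1 library of each. BEAS-2B cells, a human bronchial epithelial line immortalised with an adenovirus and SV40 hybrid virus, were nucleofected with each plasmid pool and harvested 24 hours later. The inputs were PCR products of the plasmid pools and had not passed through cells. Both pools carried the same designed oligonucleotides and tags on a pGL4.10M2 reporter backbone, and they differed by the promoter. The variants lie in and around FAM13A on chromosome 4, between positions 89528529 and 90116697 as the deposited table numbers them; the sources used here do not name its genome build. FAM13A is a locus associated with chronic obstructive pulmonary disease. Where the elements lie relative to exons and introns was not analysed here.

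In a reporter assay of this kind, an enhancer placed beside a promoter raises transcription of a reporter that carries the tag. A minimal promoter gives little transcript alone and is commonly used to reveal activating sequences, while a strong promoter starts from a higher rate and leaves more room for sequences that lower it. RNA counts also follow the number of plasmid copies, which is why they are usually divided by the input. Here the RNA libraries were set against each other directly, and the input libraries were set beside them.

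Tags are what was counted, and a few are shown so that the counts behind an element can be read. They come from the element with the largest called RNA difference in favour of minP (rs72870517), the largest called differences after input subtraction in each direction (rs33998578 and rs6828137), and the highest RNA-to-input ratio (rs1398940). For each, the tags with the lowest, the middle and the highest RNA difference are printed as the table writes them, the strand not being given, and no bases are capitalised because none is singled out.
rs72870517 window C orientation F T allele lowest: atggcacgatg
rs72870517 window C orientation F T allele middle: cgtaactgtgc
rs72870517 window C orientation F T allele highest: acgccttcttg
rs33998578 window C orientation RC T allele lowest: acttggttcct
rs33998578 window C orientation RC T allele middle: ctatgcgggtt
rs33998578 window C orientation RC T allele highest: agggtctggac
rs6828137 window C orientation F G allele lowest: gtatgccctaa
rs6828137 window C orientation F G allele middle: ggctagtattt
rs6828137 window C orientation F G allele highest: attcttctggc
rs1398940 window L orientation F G allele lowest: ctaaatcgaga
rs1398940 window L orientation F G allele middle: gtccaccaacg
rs1398940 window L orientation F G allele highest: gcgtttatacg

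In rs1398940, the tag gtccaccaacg had 13 reads in minP input, 91 in minP RNA, 15 in SV40 input and 209 in SV40 RNA. The tag ctatgcgggtt of rs33998578 had 21 reads in minP input and 108 in SV40 input, with 113 and 232 in the RNA libraries. The tag ggctagtattt of rs6828137 had 451 reads in minP input and 31 in SV40 input, and 14 in each RNA library. For rs72870517, cgtaactgtgc had 45 and 15 input reads and only 1 and 0 RNA reads. The tag of rs1398940 was thus deeply read in RNA and that of rs72870517 on single reads, while for the tags of rs33998578 and rs6828137 the inputs differed more than the RNA.

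Depth differed between the RNA libraries. There were 11086933 reads of minP RNA and 24504694 of SV40 RNA, a ratio of 2.21, against 29398765 and 26557676 reads in the inputs. Among 183099 passing tags, 6561 had 0 reads in both RNA libraries, 14114 had 0 reads only with minP and 5456 only with SV40. The RNA difference of a tag was the log2 of its minP RNA count plus 1 over the library total, minus the same for SV40. A positive value means a larger share of the RNA library with minP, called more RNA with minP below. Under this definition a tag with 0 reads in both libraries takes a value of 1.14, which comes from the library totals alone. A second version therefore scaled the pseudocount to the library total, 1 read in minP RNA and 2.21 in SV40 RNA, so that such a tag takes 0.

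Relative to the library totals, the RNA differences between the promoters were small for most elements. Scaling to the totals removes any overall difference in output between the promoters, which was not measured here. The median element stood at 0.15 (log2) with the pseudocount of 1 and at 0.029 with the scaled pseudocount, and all differences below are given relative to the median element. With the pseudocount of 1, 89.6% of elements lay within 0.5 of the median element, and the 5th and 95th percentiles were -0.32 and 0.68. With the scaled pseudocount 94.8% lay within 0.5, and these percentiles were -0.33 and 0.45. The standard deviation over elements was 0.31 and 0.24, against a median standard error over tags of 0.20 and 0.19. The error of a typical element was thus close to the spread among elements.

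An element was called when it lay at least 2-fold, and at least 3 standard errors over its tags, from the median element. There was 1 library per group, so no p-value is given, and the errors speak of tags within 1 transfection and not of transfections. With the pseudocount of 1, 41 elements of 39 variants had more RNA with minP, or 0.613% of those tested, and 0 had more with SV40. By fold alone, 89 elements were higher with minP and 1 with SV40. With the scaled pseudocount 3 elements were called in each direction (0.0449% each). With SV40 RNA thinned at random to the depth of minP RNA, 10 elements were higher with minP and 2 with SV40. Of the 41, 3 were still called with the scaled pseudocount, and all 41 kept their sign. Scaling lowers a tag's value by at most 1.14, and the median element fell with it, from 0.15 to 0.029. The 41 were chosen at a log2 of 1 or more, so a kept sign was nearly fixed in advance. The last element inside the 2-fold limit was the T allele of rs10013481, window R, orientation RC, at 1.002 ± 0.27, and the first outside it was the C allele of rs75140020, window L, orientation RC, at 0.98 ± 0.26.

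The called elements were weakly transcribed. Across the 41, minP RNA averaged 2.25 to 36.1 reads per tag, with a median of 9.58, against a median of 43.3 over all elements. Their SV40 RNA averaged 0.909 to 60.2 reads per tag, with a median of 13.2, against 96.0 over all. Of the 41, 23 fell in the lowest 10% of elements by RNA level. Restricting the comparison to elements with at least 20 RNA reads per tag left 4 called.

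The T allele of rs72870517 at position 89667065, window C, orientation F, had the largest called difference. It averaged 36.4 reads per tag in minP input, 3.31 in minP RNA, 30.8 in SV40 input and 1.38 in SV40 RNA over 13 tags. Its RNA difference was 1.62 ± 0.49 (SE over tags), or 3.07-fold, and 0.97 with the scaled pseudocount. The A allele of the same construct, a construct being both alleles in 1 window and orientation, was at 1.39 ± 0.42 with 4.09 and 2.45 RNA reads per tag over 11 tags. This was the only construct with both alleles called. In the input the alleles were at 0.31 ± 0.36 and -0.44 ± 0.35, and neither was called. After subtraction they stood at 1.32 ± 0.58 and 1.85 ± 0.48, and the A allele was called.

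No other element of rs72870517 was called in RNA. In window L of orientation F the T allele was at 0.58 ± 0.23 and the A allele at 0.31 ± 0.26, the same direction at a smaller size, and in window L of orientation RC they were at -0.01 ± 0.30 and 0.03 ± 0.20. In orientation RC of window C the T allele stood at -0.68 ± 0.18 and the A allele at -0.0026 ± 0.14. In window R of orientation F, where minP RNA averaged 214 and 182 reads per tag for T and A, the values were -0.18 ± 0.08 and -0.16 ± 0.05. These deeply read elements of window R thus lay slightly below the median element. With the pseudocount of 1 the highest 10% of elements by RNA level did too, at a median of -0.14. With the scaled pseudocount the T and A alleles were at -0.075 and -0.047.

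Next was rs12645240 at 89912706, whose G allele in window L, orientation RC, was at 1.61 ± 0.32 with 26 tags. It averaged 8.35 reads per tag in minP RNA and 5.46 in SV40 RNA, so the shallower library held more reads. It was called with the scaled pseudocount too, at 1.20. Its inputs averaged 76.0 reads per tag with minP and 30.7 with SV40, an input difference of 1.06 ± 0.18. After the input difference was subtracted, 0.57 ± 0.29 was left. The A allele was at 0.45 ± 0.39 in RNA and 1.47 ± 0.14 in input, so both alleles were more abundant in the minP pool.

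The C allele of rs76704358 at 89783273, window R, orientation F, was the second of the 3 elements called with more minP RNA under the scaled pseudocount (1.55 ± 0.30 and 1.25 scaled, 22 tags). It averaged 110 input reads per tag with minP and 40.2 with SV40, and 8.23 and 4.95 RNA reads. The input difference was 1.38 ± 0.22, and 0.18 ± 0.41 was left after subtraction. The G allele of rs2924348 at 89632910, window L, orientation RC, was the third, at 1.06 ± 0.18 and 1.09 scaled with 32 tags. Its input averaged 792.5 reads per tag with minP and 134 with SV40, a 5.60-fold difference, while its RNA averaged 36.1 and 35.8 reads. All 3 of these elements were therefore also called with more input in the minP pool.

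The other named elements with more minP RNA were the A allele of rs77140172 (1.60 ± 0.39), the A allele of rs56162738 (1.34 ± 0.28), the A allele of rs76273989 (1.31 ± 0.40), the A allele of rs34952537 (1.30 ± 0.28), the T allele of rs2446303 (1.30 ± 0.43) and the G allele of rs3017902 (1.29 ± 0.41). With the scaled pseudocount they lay between 0.53 and 0.93, and none was called. With summed counts per element the T allele of rs2446303 fell to 0.0062, its RNA averaging 5.55 reads per tag with minP and 12.3 with SV40. Among these 6 elements the other alleles lay between 0.11 and 0.60 in RNA with the pseudocount of 1.

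The 4 called elements with at least 20 RNA reads per tag, named after their values were seen, were the G allele of rs2924348 above, the A allele of rs2609284 at 89848354, window L, orientation RC, the A allele of rs13133548 at 89740128, window R, orientation F, and the T allele of rs6815703 at 89909917, window R, orientation F. The A allele of rs2609284 averaged 33.9 minP and 60.2 SV40 RNA reads per tag and stood at 1.27 ± 0.32 over 24 tags, 16 of which were higher with minP. Its input difference was -0.22 ± 0.17, and its difference after subtraction was 1.503 ± 0.31. The T allele of that construct was at -0.14 ± 0.28 in RNA and -0.45 ± 0.16 in input. The G allele of rs13133548 was at 0.15 ± 0.31 in RNA. Its A allele was at 1.18 ± 0.31, with 17 of 23 tags higher with minP and an input difference of -0.063 ± 0.18. It averaged 27.0 minP and 48.0 SV40 RNA reads per tag, with 1 of 23 tags at 0 in minP RNA and 7 in SV40 RNA. In these constructs of rs2609284 and rs13133548 the RNA gap stood on 1 allele, whose inputs were close. With the scaled pseudocount the A alleles stood at 0.95 and 0.85, and neither was called.

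The 3 elements with more SV40 RNA under the scaled pseudocount had 12 to 14 tags. The C allele of rs10024506 at 89764197, window L, orientation F, averaged 27.3 minP and 76.3 SV40 RNA reads per tag and stood at -1.03 scaled and -0.86 ± 0.37 with the pseudocount of 1. Its G allele was at 0.41 scaled. The T allele of rs13103962 at 90115818, window L, orientation F, averaged 2.46 and 8.85 RNA reads and stood at -1.10 scaled and -0.84 ± 0.40 with the pseudocount of 1. With an input minimum of 1 in place of 10, the latter value became -0.0034. The G allele of rs1903002 at 89740894, window L, orientation F, averaged 0.214 and 3.71 RNA reads, with 13 of 14 tags at 0 in minP RNA, and stood at -1.01 scaled. With the pseudocount of 1 it was at -0.56 ± 0.34, which became -0.12 with an input minimum of 1 and -2.59 with summed counts per element. Its C allele was at 0.91 scaled, so the alleles of rs10024506 and rs1903002 lay on opposite sides of the median element.

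The RNA difference moved with the RNA level. When elements were divided into 10 equal groups by the mean log2 RNA level of both libraries, the lowest group, with a median of 7.20 minP reads per tag, had a median difference of 0.45, and the next group 0.25. In the highest group, with a median of 143 minP reads per tag, it was -0.14. With the scaled pseudocount the lowest group stood at 0.062 and the highest at -0.026. Across 6688 elements, which share their libraries, the RNA difference correlated with the RNA level at Pearson's r of -0.564 with the pseudocount of 1 and -0.119 with the scaled pseudocount. Level and difference are computed from the same counts.

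The elements with the highest RNA-to-input ratio lay near the median element in RNA. The G allele of rs1398940 at 89937184, window L, orientation F, averaged 160 minP and 365 SV40 RNA reads per tag from 41.9 and 27.8 input reads, with an RNA difference of -0.16 ± 0.07 and -0.046 scaled over 18 tags. The A allele of that construct averaged 176 and 404 RNA reads and stood at -0.23 ± 0.08. The C allele of rs2869974 at 89937076, window C, orientation F, averaged 169 and 383 RNA reads and stood at -0.19 ± 0.06. The G allele of rs7674369 at 89872176, window R, orientation RC, was at -0.15 ± 0.09, and the C allele of rs10030965 at 89901415, window R, orientation RC, was at -0.25 ± 0.10. These 5 elements had the highest mean RNA-to-input ratio over both promoters, and none was called.

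Among the 20 elements with the highest ratio, 20 had an RNA difference below the median element with the pseudocount of 1 and 16 with the scaled pseudocount. Their median was -0.22 and -0.11, and their log2 RNA-to-input ratios had medians of 2.90 with minP and 2.92 with SV40. In the highest 10% of all elements by that ratio the median RNA difference was -0.16 and -0.080 scaled, and in the lowest 10% 0.46 and 0.22 scaled. Across all elements the ratio had a standard deviation of 0.93 with minP and 1.03 with SV40, with an r of 0.919 between them. The wider spread with SV40 lay at the low end, with 5th percentiles of -2.54 and -2.84 and 95th percentiles of 0.46 and 0.42. How far the pseudocount of 1 in the shallower minP RNA narrows that end was not tested. The ratio shares input counts with the input difference, so these groups are a description.

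The weakest elements showed how little RNA lay behind the low end. The T allele of rs10028284 at 89752913, window L, orientation RC, had the lowest mean ratio and averaged 1.18 minP and 2.82 SV40 RNA reads per tag from 48.2 and 40.5 input reads, with 5 of 11 tags at 0 in both RNA libraries. Its RNA difference was 0.43 ± 0.52, and -0.20 scaled. The A allele of rs4693973 at 89797667, window L, orientation RC, was at 0.68 ± 0.30, and 0.28 scaled. For rs13138280 at 90046848, the G allele in window C, orientation F, was at 0.012 ± 0.27 in RNA and at -1.06 ± 0.13 in input. For rs1903007 at 89892072, the G allele in window L, orientation RC, was at 0.75 ± 0.32 and the A allele of rs12645240, window R, orientation F, at 0.34 ± 0.28. None of these 5 was called in RNA.

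By the call rule, the inputs differed more often than the RNA. Compared in the same way, 142 elements of 76 variants (2.12%) had more input in the minP pool and 22 elements of 14 variants (0.329%) more in the SV40 pool. The input difference had a standard deviation of 0.34 over elements and a median standard error of 0.15. Most elements differed no more in input: 91.1% lay within 0.5 of the median element, against 89.6% in RNA with the pseudocount of 1 and 94.8% scaled. The 5th and 95th percentiles in input were -0.36 and 0.63. The extremes were wider than in RNA, from -2.56 to 3.14 in input and from -1.13 to 1.62 in RNA. Over elements, the log2 of mean reads per tag correlated between promoters at r of 0.986 in RNA and 0.946 in input. The RNA difference and the input difference correlated at r of 0.229 across elements, or 0.282 with the scaled pseudocount.

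In the elements chosen for the largest input differences, the input gap was far larger than the RNA gap. The G allele of rs6828137 at 90059434, window C, orientation F, averaged 240 reads per tag in minP input and 23.6 in SV40 input, and 9.06 and 10.2 in RNA. Its input difference was 3.14 ± 0.26, or 8.84-fold, and its RNA difference 0.48 ± 0.54 over 16 tags, all of which had relatively more minP input. The T allele of rs10516821 at 89727979, window R, orientation RC, averaged 473 and 64.0 input reads and 24.1 and 28.9 RNA reads, with differences of 2.74 ± 0.14 in input and 0.58 ± 0.23 in RNA. Its C allele averaged 308 and 307 input reads, at -0.06 ± 0.10, and 170 and 386 RNA reads. The input excess of this construct was thus on 1 allele.

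For rs62306390 at 90031328, the A allele in window C, orientation F, averaged 296 and 45.9 input reads per tag and 12.9 and 16.8 RNA reads, with differences of 2.56 ± 0.14 in input and 1.01 ± 0.36 in RNA. In window L the A allele was at 1.57 ± 0.14 in input and 1.18 ± 0.28 in RNA, and in window R at 0.47 ± 0.10 and 0.54 ± 0.17. The G allele lay between -0.19 and 0.03 in input in these 3 windows. The A allele of rs17014616 at 89736565, window L, orientation F, was at 2.47 ± 0.17 in input and 1.08 ± 0.34 in RNA, and its T allele at 2.28 ± 0.17 and 0.80 ± 0.35. Both alleles shared the input gap in rs17014616, and 1 allele carried it in rs62306390.

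In the opposite direction, the T allele of rs33998578 at 90030864, window C, orientation RC, averaged 26.6 reads per tag in minP input and 137 in SV40 input, and 15.4 and 33.1 in RNA. Its input difference was -2.56 ± 0.20 and its RNA difference 0.14 ± 0.31 over 20 tags, 0 of which had relatively more minP input. The A allele of rs2085600 at 89779909, window L, orientation F, averaged 106 and 473 input reads and 14.97 and 25.6 RNA reads, at -2.30 ± 0.12 in input and -0.27 ± 0.30 in RNA. Its G allele was at -1.93 ± 0.13 in input and 0.20 ± 0.21 in RNA. For rs17014285 at 89537269, the G allele in window L, orientation F, was at -2.20 ± 0.23 in input and 0.10 ± 0.47 in RNA. Both alleles of rs60107549 at 90112546, window L, orientation F, were at -2.24 ± 0.15 (T) and -2.07 ± 0.18 (A) in input and at 0.21 ± 0.41 and 0.36 ± 0.42 in RNA.

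Over the 142 elements with more minP input, the median input difference was 1.28 and the median RNA difference 0.57, or 0.45 with the scaled pseudocount. They had a positive RNA difference in 140 cases with the pseudocount of 1 and in 132 with the scaled pseudocount, and 11 were called in RNA. Their median input was 208 reads per tag with minP and 70.4 with SV40, against 108 and 101 in elements whose input was not called. The median RNA of the 142 was 13.4 and 20.6 reads per tag, against 44.1 and 98.7. Over the 22 elements with more SV40 input, the median input difference was -1.64 and the median RNA difference 0.14, or 0.027 scaled, and 0 were called in RNA. Their median input was 68.9 and 169 reads per tag, and their median RNA 11.4 and 19.6. In both sets RNA was low and differed less between promoters than the input did. The sets were chosen by their input difference, which favours that order. In the 41 elements chosen by RNA, the median RNA difference was 1.17 and the median input difference 0.32. The log2 RNA-to-input ratios had medians of -2.94 with minP and -2.29 with SV40 in the 142, and of -1.68 and -3.75 in the 22.

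Tag by tag, the RNA libraries also resembled each other more than the inputs did. Over 183099 tags the log2 scaled counts correlated at Pearson's r of 0.896 between the RNA libraries and at 0.806 between the inputs. The minP RNA correlated at 0.566 with its own input and at 0.568 with the SV40 input, while SV40 RNA correlated at 0.562 with its own input and 0.543 with the minP input. Among 26108 tags with a mean of 100 to 200 RNA reads at minP depth, the difference between RNA libraries had a standard deviation of 0.34, where counting error alone would give 0.15. Among 51954 tags with 100 to 200 input reads it was 0.77, against 0.18 from counting error. Tags share libraries and elements, so these values describe the 4 libraries and carry no p-value.

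After the input difference of each tag was subtracted from its RNA difference, 71 elements of 57 variants (1.06%) were higher with minP and 39 elements of 32 variants (0.583%) higher with SV40. With the scaled pseudocount the split turned, with 29 higher with minP and 61 higher with SV40. Of the 39 elements higher with SV40, 37 were called with more minP input and 0 were called with more SV40 RNA, while 2, the G allele of rs2924348 in window L, orientation RC, and the A allele of rs17014616 in window L, orientation F, were called with more minP RNA. Of the 39, 24 lay within 0.5 of the median element in RNA. Of the 71 higher with minP, 21 were called with more SV40 input and 9 were called in RNA, and 41 were called in neither. Across elements the subtracted difference correlated with the input difference at r of -0.671 and with the RNA difference at 0.568, both of which it contains.

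The largest values after subtraction toward minP were those of the T allele of rs33998578 (2.71 ± 0.29), the T allele of rs73842243 at 89738899, window L, orientation F (2.71 ± 0.38), the alleles of rs60107549 (2.47 ± 0.42 and 2.45 ± 0.44) and the A allele of rs80074956 at 90012916, window C, orientation RC (2.43 ± 0.24). In RNA alone these stood at 0.14, 1.07, 0.21, 0.36 and 0.35 with the pseudocount of 1. With the scaled pseudocount they stood at -0.0055, 0.64, -0.15, 0.087 and 0.32. The largest toward SV40 were those of rs6828137 (-2.65 ± 0.58), rs10516821 (-2.15 ± 0.23), the A allele of rs2924348 (-1.75 ± 0.21), the C allele of rs2704577 at 89894446 (-1.64 ± 0.34) and the G allele of rs60751124 at 89934939 (-1.63 ± 0.33). In RNA alone these stood at 0.48, 0.58, 0.45, 0.55 and 0.11 with the pseudocount of 1, each above the median element. With the scaled pseudocount they stood at 0.31, 0.62, 0.49, 0.24 and -0.065, the last below it. None of the 10 was called in RNA.

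The alleles of a construct differ by 1 base and carry separate tags, so they show whether a difference recurs in other plasmids of nearly the same sequence. Of 140 elements with more minP input whose other allele was tested, 137 had the same sign in that allele and 88 were called the same way. For the 22 with more SV40 input it was 19 and 16 of 21. Over all elements, 2.12% were called with more minP input and 0.329% with more SV40 input. Where both alleles of a construct were called the same way, each was counted for the other. For the 41 elements called in RNA, the other allele was tested in 40 and had the same sign in 37, but only 2 were called. These 2 were the alleles of rs72870517, each counted for the other. The other alleles had a median of 0.34, against 0.45 in the lowest 10% of elements by RNA level, which held 23 of the 41. The shared sign therefore does not show recurrence. Over 3278 constructs the correlation between alleles was 0.679 for the input difference, 0.376 for the RNA difference and 0.179 for the RNA difference with the scaled pseudocount.

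Across windows the agreement was lower. The windows of a variant are different cuts of the surrounding sequence, and their tested pairs correlated at 0.212 to 0.313 for the input difference and at 0.107 to 0.140 for the RNA difference with the scaled pseudocount, over 2008 sets of 3 windows. For the 142 elements with more minP input, 271 other windows were tested. Of these, 198 had the same sign and 62 were called the same way, against 2.12% called over all elements. Elements called in more than 1 window were counted for each other. For the 22 with more SV40 input, 17 of 42 other windows had the same sign and 0 were called the same way. For the same window in orientations F and RC, r was 0.104 for the input difference and -0.055 for the scaled RNA difference over 3088 pairs. Of 53 elements with more minP input whose opposite orientation was tested, 30 had the same sign there and 0 were called the same way. With 53 elements, 0 called lies near the 2.12% called over all elements. Input differences of opposite sign were called in different windows of 5 combinations of variant, orientation and allele. In orientation RC, the T allele of rs2125409 was at -1.83 ± 0.13 in window C and 1.27 ± 0.16 in window R. The A allele of rs80074956 was at -2.06 ± 0.11 and 1.89 ± 0.20 in those windows, with RNA differences of 0.35 ± 0.24 and 0.93 ± 0.28.

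Groups of elements by design or position had nearly the same median. Orientation F stood at -0.011 and RC at 0.012 in RNA, with 18 of 3338 and 23 of 3350 elements called. Window L stood at 0.021, window C at -0.0057 and window R at -0.012, with 22 of 2233, 6 of 2221 and 13 of 2234 called, or 0.985%, 0.270% and 0.582%. In 12 stretches of 50 kb along the locus, median RNA differences ran from -0.032 to 0.043 and from -0.021 to 0.017 with the scaled pseudocount. Called elements were spread over 11 of the stretches, against 0.613% called over all elements. The stretch from 89629066 to 89675650 held 8 of 593 (1.35%), and the stretch before it 0 of 416. The stretch from 90028653 to 90078273 held 24 of 552 elements with more minP input, and the last stretch 2 of 371. These are the highest and lowest shares, against 142 of 6688 (2.12%) over all. Alleles and windows of a variant count separately, and the 142 came from 76 variants.

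A list of 8 variants known from lung association studies or from this study had 88 tested elements. Their median RNA difference was 0.0043 with a range of -0.52 to 1.17, against 0 and a range of -1.13 to 1.62 over all elements. One element was called in RNA, or 1.14% against 0.613% of all, and 2 were called with more minP input, or 2.27% against 2.12% of all. With counts this small the shares do not set the list apart. For rs2869967 at 89869332, the C allele in window L, orientation RC, averaged 141 and 101 input reads per tag and 23.2 and 36.2 RNA reads, at 1.17 ± 0.24 in RNA and 0.27 ± 0.15 in input over 28 tags, 24 of which were higher with minP. With the scaled pseudocount it was at 0.99, just short of 2-fold. The T allele of that construct was at 0.11 ± 0.22, and the other elements of rs2869967 lay between -0.26 and 0.70 in RNA. The highest of these, the C allele in window C, orientation F, was at 0.70 ± 0.24 in RNA and -0.43 ± 0.19 in input, and was called after subtraction at 1.15 ± 0.31.

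For rs2013701 at 89885086, a candidate causal variant of this study, the T allele in window C, orientation F, averaged 572 and 195 input reads per tag and 28.1 and 35.9 RNA reads. Its differences were 1.49 ± 0.10 in input and 0.76 ± 0.23 in RNA. In window L the T allele averaged 590 and 258 input reads and 36.2 and 48.8 RNA reads, at 1.04 ± 0.08 in input and 0.58 ± 0.09 in RNA, with 29 of 31 tags higher with minP. The G allele was at 0.31 ± 0.10 and 0.40 ± 0.05 in input and at -0.08 ± 0.14 and 0.03 ± 0.07 in RNA. The T allele thus had relatively more minP RNA and more minP input in both windows, and after subtraction it was at -0.71 ± 0.23 and -0.45 ± 0.13. The RNA differences of the T allele were not called. The remaining variants, rs7671167, rs1903003, rs6830970, rs2045517, rs4416442 and rs2609255, had 0 elements called in RNA or input.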

How the data were processed

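There were 4 libraries, 1 per group: input and RNA for minP and for SV40. The deposited table holds whole-number read counts per tag, sequenced with 36 nt single reads per the labels. The sources used here do not say how the authors assigned reads to tags or whether duplicates were removed, and they state no molecular identifiers. The 4 count columns were used as deposited, with library totals over all 218526 tags. Tags needed 10 reads in both inputs, elements 10 tags. Per-tag log2 differences used a pseudocount of 1 and were averaged per element, with the standard error over tags. Differences were taken from the median element, and an element was called at 2-fold and 3 standard errors. With 1 library per group no test between groups was run. Only 33 of 3356 tags beginning with TC passed.

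Named were, per direction, the 10 largest called RNA differences, the 5 largest after subtraction, constructs with both alleles called, the 5 highest and 5 lowest ratios, and the called elements of 8 listed variants. The 5 largest input differences each way and the elements called with the scaled pseudocount or at 20 RNA reads were added after values were seen. Members and lists were chosen with earlier results of these data known. The calculation, in Python 3.11.15 with pandas 2.3.3, NumPy 2.4.6 and SciPy 1.17.1, was tested on simulated data. No oligonucleotide sequences were used here.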

Additional observations from a re-analysis of the deposited data

How the results depend on the processing

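Counts are given as elements higher with minP, then higher with SV40, and count as moved when they differ by over 1.5 times. In RNA (41 and 0) they were 59 and 1 with an input minimum of 1, 8 and 0 with 50, 26 and 0 with a pseudocount of 0.5, 113 and 0 with medians over tags, 55 and 4 with summed counts, 85 and 0 with column totals alone, 10 and 2 with thinned SV40 RNA, and 3 and 3 with the scaled pseudocount. At 20 RNA reads per tag, an alternative chosen after seeing the data, they were 4 and 0. After input subtraction (71 and 39) they were 100 and 61, 18 and 14, 46 and 46, 81 and 41, 62 and 58, 134 and 19, 33 and 50, 29 and 61, and 19 and 9 in the same order, and 46 and 28 without tags at 0 RNA reads. In input (142 and 22) they were 149 and 35 with a minimum of 1, 86 and 9 with 50, and 44 and 3 at 20 RNA reads. Trimming, 20 tags per element and leaving out TC tags moved none of these counts. The 1 listed element called in RNA became 3 with an input minimum of 1, 2 with summed counts, and 0 without tags at 0 RNA reads, with the scaled pseudocount and at 20 RNA reads. Of the 41 calls, 11 were called without tags at 0 RNA reads, where 47 elements were called in all. The correlation of RNA differences between alleles was 0.242 with a pseudocount of 0.5, 0.194 thinned and 0.179 scaled, and that of RNA and input differences 0.356 with summed counts. Of 397 recomputed RNA differences of 38 named elements, 383 stayed within their 95% interval over tags and 14 moved further. Among those that moved were the T alleles of rs13103962 (to -0.0034 with an input minimum of 1) and rs2446303 (to 0.0062 with summed counts). The cause of these moves was not tested. Of the called ones 0 changed sign, but they had been chosen for a difference of at least 2-fold. A value could stay within its interval and still lose its call. The T allele of rs72870517 in window C, orientation F, went from 1.62 to 0.97 with the scaled pseudocount and was no longer called. Summed counts have no error over tags, so fold alone was used, and trimmed means and medians kept the error of the mean. No paired analysis was possible because each group held 1 library.

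Depth limits the low elements: of passing tags, 3.58% had 0 reads in both RNA libraries. Errors cover tags within 1 transfection per promoter, and PCR reads are not independent molecules.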
